A study of Mus musculus with 2 samples.

Results

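Neuro2a is a mouse neuroblastoma line, derived from a tumour of immature sympathetic neurons. The cells had received either a control siRNA of no specific target (1 sample) or an siRNA against Tmem132a, also called mKIAA1583 (1 sample), and their total RNA was read on 1 Affymetrix Mouse Genome 430 2.0 array each. The duration of the transfection and the siRNA sequences are not given in the sources used here, and both groups had been transfected, so no array shows untreated cells. With 1 array per group there was no replicate error and no test could be made. Differences are given as log2 ratios, with values above 0 for genes higher after Tmem132a siRNA than after control siRNA. In each pair of signals below, the control siRNA array comes first.

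The genes described here encode calcium channels, the machinery of store-operated calcium entry, calcium pumps and exchangers, calcium/calmodulin-dependent protein kinases and the mitochondrial calcium uniporter. They were chosen by gene symbol: Cacna, Cacnb and Cacng subunits, Orai, Stim, Itpr, Ryr, Trpc, Trpm, Trpv, Atp2a, Atp2b, Atp2c, Slc8a, Camk, Mcu and Micu. Of 18193 genes with a probe set annotated to 1 symbol, 77 were chosen this way, with 182 probe sets.

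A cell keeps its cytosolic calcium far below that outside and that in the endoplasmic reticulum (ER). Calcium enters through voltage-gated, TRP and store-operated channels, leaves the ER through inositol trisphosphate (IP3) and ryanodine receptors, and is removed by ATP-driven pumps and sodium-calcium exchangers. When the ER store empties, STIM proteins of the ER membrane sense the loss and open ORAI channels of the plasma membrane. The cytosolic signal activates kinases such as CaMKII, and in neurons these control excitability, secretion and gene expression.

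The targeted gene went with the labels: Tmem132a, by probe set 1416845_at, had signals of 1825.5 and 435.6, so that 23.9% of the control signal was left (log2 ratio -2.07). The group comes from that sample's title and treatment, since its description repeats the control's wording. Of 17 markers of neuroblastoma and sympathetic neurons with a probe set, 16 had one whose mean signal reached 77.25, the median of all probe sets, which served as the limit for measured genes. Among them was Hand2, a transcription factor of the sympathetic lineage, with signals of 15242.0 and 13190.2. Ratios were below 0 for 15 of the 16, while 51.8% of all measured genes were above 0. The median of the 16 was -0.31, against 0.02 over all genes. The exception was Hand1, with signals of 56.0 and 116.1 (log2 ratio 1.05). It was under the limit on the control siRNA array, so its direction was fixed by the limit. The signals of the whole list summed to 79652 and 66374. Markers of other cells were mostly under the limit: 1 of 6 passed for muscle, 0 of 4 for glia, 0 of 6 for fibroblasts, 1 of 6 for immune cells and 1 of 6 for epithelium and endothelium. The part of the lower neuronal markers in the calcium results was not tested, and in bulk RNA fewer cells of a type and less RNA per cell cannot be told apart.

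Of the 77 calcium genes, 42 had at least 1 probe set past the signal limit, 73 probe sets in all, and only these have a gene value, the mean log2 ratio over those probe sets. Their ratios lay on both sides of 0: 24 (57.1%) had a ratio above 0, where 51.8% of all 10678 measured genes did, and 18 below, and the median was 0.05 against 0.02 over all genes. Orai2 and Stim1 were at least 2-fold higher with the Tmem132a siRNA, 2 of 42, where 2.10% of all genes were. Atp2a3 was at least 2-fold lower, 1 of 42, where 2.44% of all genes were. At 1.5-fold, 6 were higher, with 8.83% of all genes, and 4 were lower, with 9.10%. Counts of this size in 42 genes lie near the share of all genes and are no result about the calcium genes as a group.

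**Figure D1:**
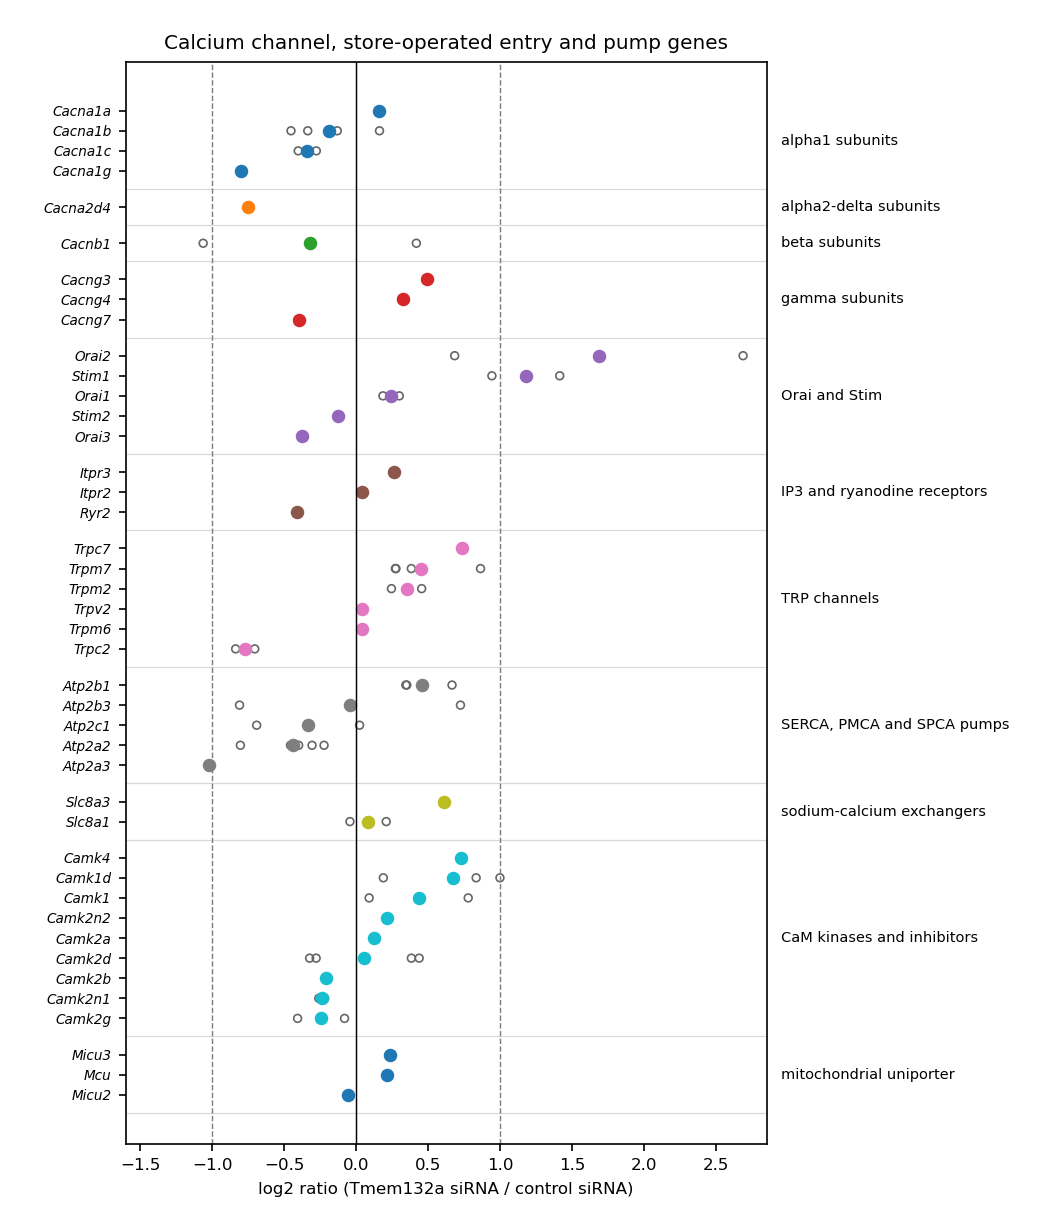
The log2 ratio (Tmem132a siRNA over control siRNA) of each of the 42 measured calcium genes is plotted by role; filled points are gene values, open circles the probe sets of genes with several, and dashed lines mark 2-fold. Orai2 (1.69) and Stim1 (1.18) lie above the upper line and Atp2a3 (-1.02) at the lower one, while the groups scatter on both sides of 0.

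Store-operated entry held both of the genes that were 2-fold higher, and its 5 genes were all measured. ORAI1, ORAI2 and ORAI3 form the channel pore, and STIM1 and STIM2 are the ER calcium sensors. Stim1 was read by 2 probe sets. 1448320_at had signals of 197.2 and 378.9 (log2 ratio 0.94), and 1436945_x_at had 56.8 and 151.3 (1.41). Both were higher on the Tmem132a siRNA array, and the gene ratio was 1.18, a 2.26-fold higher signal. The suffix x marks a probe set that can share sequence with other transcripts. This probe set was also under the limit on the control siRNA array, so its direction was fixed by the limit and adds nothing to that of 1448320_at. Without it the ratio of Stim1 was 0.94, just under 2-fold.

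Orai2 was also read by 2 probe sets, which gave very different amounts. 1434763_at had signals of 107.1 and 172.0 (log2 ratio 0.68), and 1434762_at had 21.1 and 135.9 (2.69). The latter passed the limit of 77.25 only through its signal on the Tmem132a siRNA array (mean 78.5), so its direction was fixed by the limit and adds nothing to that of the other. The gene ratio of 1.69 and the 2-fold size of Orai2 depend on it. The ratio was 0.68 by the brighter probe set alone, and 0.77 when a pseudocount of 79.2 was added to all signals.

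The paralogues showed smaller ratios that went both ways. Orai1, the pore subunit of the classical store-operated current, had signals of 230.1 and 261.6 by 1424990_at and 78.2 and 96.2 by 1424989_at, a gene ratio of 0.24. Orai3 had 199.7 and 154.1 (-0.37). Stim2, which senses small losses of ER calcium, had 906.2 and 828.4 by 1434219_at (-0.13), and its other probe set, with 47.7 and 49.8, did not reach the limit. Of the 5 genes 3 were therefore above 0 and 2 below, and in each of the Orai and Stim families members differed in direction.

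**Figure D2:**
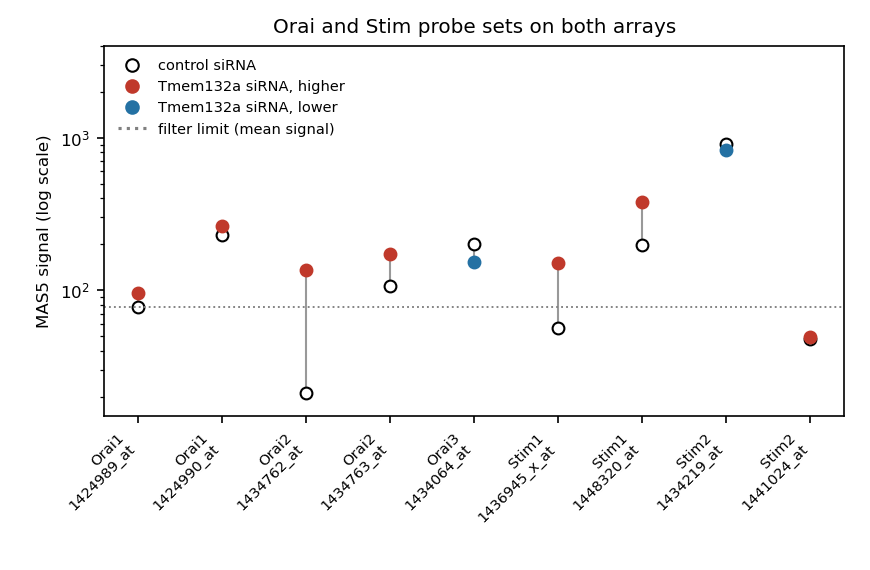
MAS5 signals (log axis) of the 9 Orai and Stim probe sets are shown, with open circles for the control siRNA array, filled circles for the Tmem132a siRNA array and a dotted line at the signal limit. Both probe sets of Stim1 and of Orai2 are higher with the Tmem132a siRNA, and the widest gap, 21.1 to 135.9, starts well under the limit.

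The upstream sequences of these higher genes are shown because Stim1 and Orai2 differed the same way. They are the 250 bases before the gene start in RefSeq, on build GRCm38.p6, printed 5′ to 3′ on the strand of the gene. Capitals mark GC boxes (GGGCGG, either strand) and E-boxes (CACGTG, the same on both strands). The Stim1 stretch is chr7:102267569-102267818 on the plus strand, and that of Orai2 is chr5:136170657-136170906 on the minus strand.
Stim1: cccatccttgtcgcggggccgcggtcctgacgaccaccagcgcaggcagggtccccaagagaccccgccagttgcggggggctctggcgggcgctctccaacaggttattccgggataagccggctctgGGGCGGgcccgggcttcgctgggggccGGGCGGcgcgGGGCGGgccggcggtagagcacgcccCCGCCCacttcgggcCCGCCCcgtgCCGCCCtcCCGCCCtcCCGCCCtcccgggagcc
Orai2: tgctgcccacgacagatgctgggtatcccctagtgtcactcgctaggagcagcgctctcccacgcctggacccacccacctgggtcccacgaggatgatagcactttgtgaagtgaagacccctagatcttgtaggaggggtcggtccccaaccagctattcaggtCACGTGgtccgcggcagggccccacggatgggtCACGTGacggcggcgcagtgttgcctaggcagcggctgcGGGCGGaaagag
The Stim1 stretch is 78.4% G and C and holds 8 GC boxes, and the Orai2 stretch is 63.6% G and C, with 1 GC box and 2 E-boxes, which start 84 and 51 bases before the gene start. Neither holds a cAMP response element (TGACGTCA), the core of the element bound by C/EBP-ATF heterodimers (TGATGNAA), a CCAAT box (CCAAT) or a TATA box (TATAAA), on either strand. Over the 32851 stretches of this length that were searched, 32.7% hold a GC box, 6.02% an E-box and 1.55% the cAMP response element. The C/EBP-ATF core is in 3.45% of them, a CCAAT box in 33.8% and a TATA box in 12.4%. The search left out a chromosome. The E-box was added to the search after the Orai2 sequence had been read. No motif contains another. A match describes the letters in this window and is not a bound site.

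Over the 78 stretches searched for 61 of the 77 calcium genes, 38 (48.7%) held a GC box, 21 (26.9%) a CCAAT box, 4 (5.13%) a TATA box and 4 (5.13%) an E-box. The E-boxes were those of Itpr3, Orai2, Trpm1 and Trpm7. The C/EBP-ATF core was found in 1 stretch, of Cacna1c, and the cAMP response element in 0. The median content of G and C was 58.6% in these stretches and 52.4% in all, so these stretches were richer in G and C as a whole. Several stretches can belong to 1 gene and overlap.

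Of the calcium pumps, the widespread pump of the ER was lower and that of the plasma membrane higher. Atp2a2, which encodes SERCA2, the widespread pump that fills the ER, was lower by all 5 of its measured probe sets. The brightest, 1427250_at, had signals of 12173.9 and 10423.1, 1416551_at had 5125.1 and 3733.0, and 1452363_a_at had 2455.8 and 1860.4. The other two had 510.0 and 412.1, and 240.6 and 137.7. The ratios ran from -0.81 to -0.22, with a gene ratio of -0.44, which is 1.36-fold lower. Over all genes with 5 measured probe sets, 27.4% had every one on the same side of 0. The ratio of Atp2a2 stayed below 0 in each of the 10 alternative settings, between -0.51 and -0.22.

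Atp2a3 encodes SERCA3, a SERCA pump of lower calcium affinity. Its probe set 1421129_a_at had signals of 144.0 and 71.0, a log2 ratio of -1.02. The value rests on this probe set alone, which was under the limit on the Tmem132a siRNA array, so its direction was fixed by the limit. The second probe set of Atp2a3 was under the limit with 20.3 and 14.6. The suffix a marks a probe set that reads several transcripts of 1 gene. With no signal limit the ratio of Atp2a3 was -0.75, and with the pseudocount -0.57, both under 2-fold.

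Atp2b1 encodes PMCA1, the main pump that exports calcium across the plasma membrane. It was higher by all 3 of its probe sets, with signals of 2165.9 and 2762.3, 1308.5 and 2074.9, and 504.2 and 640.0. The ratios lay between 0.34 and 0.67 and the gene ratio was 0.45, which is 1.37-fold higher. Among all genes with 3 measured probe sets, 46.2% had every one on the same side of 0.

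The remaining pumps gave no clear direction. The 2 probe sets of Atp2b3, a neuronal PMCA, disagreed, with 122.3 and 69.7 for one and 68.3 and 112.8 for the other. Those of Atp2c1, the pump of the Golgi, had 845.1 and 858.5 (0.02) and 902.6 and 558.6 (-0.69). Atp2a1, the SERCA of fast muscle, and Atp2b2, Atp2b4 and Atp2c2 did not pass the limit. Of 5 measured pump genes, 1 was above 0 and 4 below, where 51.8% of all measured genes were above 0.

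The stretch before the start of Atp2a3 (chr11:72960919-72961168, plus strand, GRCm38.p6) is shown beside those of the higher genes, as the one lower gene past 2-fold. Capitals mark GC boxes as before.
Atp2a3: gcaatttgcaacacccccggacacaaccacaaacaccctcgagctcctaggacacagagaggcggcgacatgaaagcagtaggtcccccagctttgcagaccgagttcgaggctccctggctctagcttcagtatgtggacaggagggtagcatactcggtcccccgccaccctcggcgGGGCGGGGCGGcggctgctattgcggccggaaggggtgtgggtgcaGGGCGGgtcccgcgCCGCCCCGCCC
It holds 5 GC boxes, some of them overlapping, in 66.8% G and C, and none of the other 5 motifs. A GC box was held by 48.7% of the calcium stretches and 32.7% of all stretches searched, and its part in these differences was not tested.

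Voltage-gated channels, which open on depolarisation and set calcium entry in excitable cells, were measured in part. The alpha1 subunit forms the pore, and 4 of 9 genes had a value. Cacna1b, the pore of the N-type channel of nerve terminals, had 4 probe sets with ratios from -0.45 to 0.16 and a gene ratio of -0.19. The brightest of them had signals of 379.4 and 346.2. Cacna1c, the pore of an L-type channel, was lower by both probe sets, with 531.5 and 438.4, and 136.9 and 103.5, a gene ratio of -0.34. Cacna1g, the pore of a low-voltage-activated T-type channel, had 244.2 and 140.0 (-0.80), from 1 probe set. Cacna1a, the pore of the P/Q-type channel, had 76.6 and 85.3 (0.16), at the very limit of the measured range. It was under the limit on the control siRNA array, so its direction was fixed by the limit. Of the 4, 3 were below 0, where 51.8% of all measured genes were above 0. At least 1.5-fold lower was 1 of the 4, with 9.10% of all genes. With its x and a probe sets left out, the ratio of Cacna1b was 0.01.

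The accessory subunits guide the pore to the membrane and tune its opening. Cacna2d4, the only measured alpha2-delta gene of 4, had signals of 106.2 and 63.1 (-0.75) by its 1 measured probe set. This probe set was under the limit on the Tmem132a siRNA array, so its direction was fixed by the limit. With no signal limit, where dim probe sets with 29.7 and 52.9 and with 2.7 and 15.8 entered, the ratio of Cacna2d4 was 0.07. The beta subunit gene Cacnb1 was read in opposite directions, with 249.2 and 119.2 (-1.06) by 1440940_at and 97.5 and 130.2 (0.42) by 1425777_at. Of 8 gamma subunit genes, Cacng3 had 311.4 and 437.2 (0.49), Cacng4 231.6 and 288.3 by the brighter of 2 probe sets (gene ratio 0.33), and Cacng7 202.0 and 153.0 (-0.40). The last 3 belong to a family whose members mostly associate with AMPA-type glutamate receptors, and none of them reached 1.5-fold.

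The intracellular release channels among the chosen genes were dim. The IP3 receptor gene Itpr1 was not among them, so nothing is said here about its signal or about IP3 receptors as a whole. Itpr2 and Itpr3, receptors for IP3, had signals of 83.0 and 85.4 (0.04) and of 70.9 and 84.9 (0.26), each by 1 probe set. Ryr2, the ryanodine receptor of heart and brain, had 141.3 and 106.1 (-0.41). Ryr1 and Ryr3 did not pass the limit, with Ryr1 at 45.5 and 8.0 by its brighter probe set.

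TRP channels are cation channels gated by lipids, temperature, redox state or second messengers, and 6 of 18 were measured. Trpm7, a channel fused to a kinase that carries magnesium and calcium, was higher by all 4 of its probe sets. Their signals were 1913.9 and 2310.5, 635.7 and 769.4, 224.8 and 293.0, and 69.1 and 125.7, with a gene ratio of 0.45, and the last was under the limit on the control siRNA array. The direction of that last probe set was thus fixed by the limit, and only the others were free to disagree. Over all genes with 4 measured probe sets, 38.8% had every one on the same side of 0, with no allowance for such probe sets. Trpm2, a channel opened by ADP-ribose under oxidative stress, was higher by both probe sets, the brighter with 483.7 and 662.7 (gene ratio 0.35). The dimmer, with 74.8 and 88.6, was under the limit on the control siRNA array, so its direction was fixed as well. Trpv2 had 1301.0 and 1340.4 (0.04), and Trpm6, a magnesium channel related to Trpm7, had 84.5 and 86.8 (0.04).

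The largest differences among TRP channels were those of Trpc2 and Trpc7. Trpc2, the channel of pheromone-sensing neurons in rodents, was lower by both probe sets, with 625.9 and 350.1 by 1430485_at and 169.4 and 103.9 by 1436854_at, a gene ratio of -0.77. A further 2 probe sets are annotated to Trpc2 together with another symbol and were left out. Trpc7, a channel opened by diacylglycerol, had 62.8 and 104.6 (0.74) from 1 dim probe set. This probe set was under the limit on the control siRNA array, so its direction was fixed by the limit. Of the 6 TRP genes, 5 were above 0, where 51.8% of all measured genes were. Trpc7 was past 1.5-fold in that direction and Trpc2 in the other.

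Sodium-calcium exchangers export calcium in return for sodium. Slc8a3, the exchanger NCX3 of brain and muscle, had signals of 250.7 and 381.7 (0.61), 1.52-fold higher by 1 measured probe set. Slc8a1, NCX1, had 104.5 and 120.7, and 89.6 and 86.9, a gene ratio of 0.08. Slc8a2 did not pass the limit, with 6.2 and 5.8 by its brighter probe set.

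Of the calcium/calmodulin-dependent protein kinases, the 3 measured of the CaMKI and CaMKIV branch were above 0, where 51.8% of all measured genes were. Camk1g did not pass the limit, and the genes of the CaMKII branch lay on both sides of 0. A count of 3 genes is no result about a branch. Camk1d encodes a CaMKI isoform. Its 3 probe sets had 688.1 and 1225.5, 539.7 and 614.8, and 229.9 and 459.2, all higher with the Tmem132a siRNA, and the gene ratio was 0.67. Camk1 had 112.8 and 120.0, and 109.5 and 187.7 by 1417605_s_at (gene ratio 0.43). The suffix s marks a probe set that can read several genes, and without it the ratio of Camk1 was 0.09. Camk4, a mainly nuclear kinase that phosphorylates CREB, had 95.8 and 158.3 (0.72) by its 1 measured probe set. The 3 ratios came from 6 probe sets, and 4 of the 6 had a signal under 250 with the control siRNA.

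The CaMKII subunits Camk2a (0.12), Camk2b (-0.21), Camk2d (0.05) and Camk2g (-0.24) stayed within 1.5-fold. Camk2g had signals of 2106.3 and 1587.6, and 1777.7 and 1679.9. The 4 probe sets of Camk2d went both ways, from -0.32 to 0.44. Camk2n1 and Camk2n2, which encode small inhibitors of CaMKII, had gene ratios of -0.24 and 0.21, and Camk2n2 had signals of 1282.5 and 1484.1.

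Mitochondria take up calcium through MCU, which MICU proteins gate. Mcu had signals of 562.8 and 653.6 (0.22), Micu2, an inhibitory gatekeeper, 1629.7 and 1566.6 (-0.06), and Micu3, a neuronal enhancer of uptake, 414.4 and 487.7 (0.23). None of the 3 reached 1.5-fold.

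The spread of the ratios over genes differed with signal, and the agreement of probe sets differed with their number. With 1 array per group, precision itself was not measured, and the spread over genes includes any true differences between them. Over all genes, the SD of the log2 ratios was 0.78 where the brightest probe set had a mean signal under 150, and 0.34 where it was above 2000. Of the 42 calcium genes, 15 lay in the dimmest range, Orai2 and Atp2a3 among them, and 33.3% of these 15 were at least 1.5-fold, as were 37.4% of all genes in that range. Of the 13 between 150 and 500, which include Stim1 and Trpc2, 30.8% were, against 23.6% of all genes there. Of the 11 calcium genes between 500 and 2000, only Camk1d reached 1.5-fold (9.09%, against 13.8% of all genes there). Over the 20 calcium genes with several measured probe sets, the SD of the ratios around the gene mean was 0.46, against 0.39 over all such genes. The probe sets read the same 2 RNA samples, so this spread leaves out variation between cultures, and its source was not tested. In 14 of the 20 all probe sets lay on the same side of 0 (70%, against 55.2% of all genes with several). This share depends on the number of probe sets: with 2 it was 71.4% of 14 calcium genes and 65.7% of all genes. In 3 of the 20 (15%, against 4.38%) all were at least 1.5-fold the same way, Orai2 and Stim1 higher and Trpc2 lower. The probe sets of Orai2 and Stim1 include those under the limit on 1 array. In all, 12 of the 73 measured probe sets were under the limit on 1 array, and 7 of the 42 genes had only such probe sets: Atp2a3, Atp2b3, Cacna1a, Cacna2d4, Camk2b, Itpr3 and Trpc7. A probe set of this kind passes only if its other signal is higher, so its direction was fixed by the limit.

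**Figure D3:**
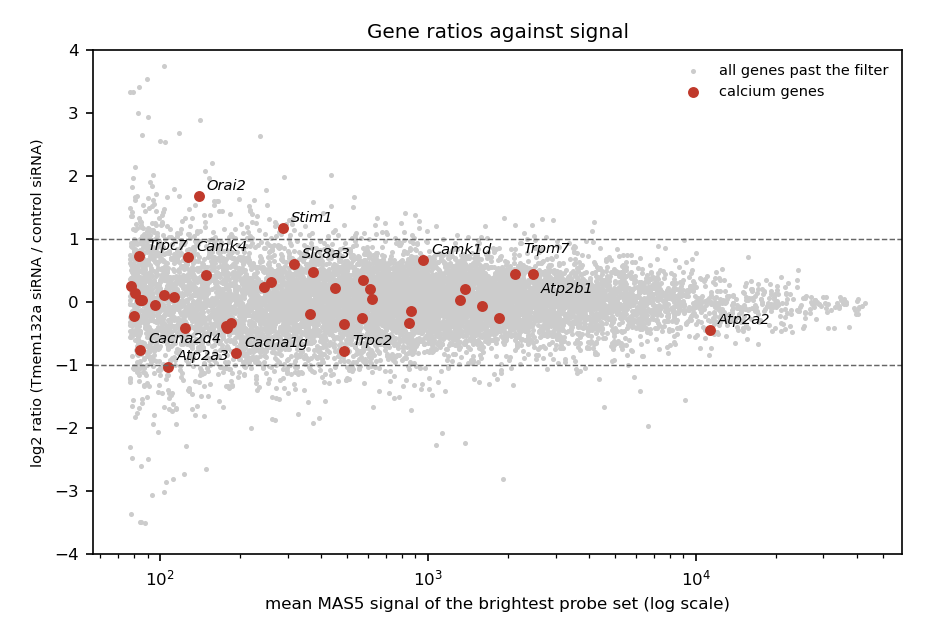
Gene log2 ratios are plotted against the mean MAS5 signal of the brightest probe set (log axis), in grey for all 10678 genes and in red for the 42 calcium genes, with dashed lines at 2-fold. The ratios spread more at low signals, where Orai2 and Atp2a3 lie. The bright Atp2a2 lies at -0.44, short of 1.5-fold, where all genes above 2000 have an SD of 0.34.

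A wider list of calcium-handling genes, drawn up by function, had 54 measured genes of 84 with a probe set. Their median was 0.06, and 35 (64.8%) were above 0, where 51.8% of all genes were. Only P2rx7, higher, and Plcb3, lower, reached 2-fold (3.70%, against 4.54% of all genes), and 8 reached 1.5-fold (14.8%, against 17.9%). P2rx7, an ATP-gated channel permeable to calcium, had signals of 111.7 and 385.4 (1.79) by 1 probe set, 1419853_a_at. With no signal limit the ratio of P2rx7 was 0.95, and it had no value where probe sets with the suffix a were left out. Plcb3, a phospholipase C that makes IP3, had 364.0 and 171.2 (-1.09). Others past 1.5-fold and higher were Itpkc, which phosphorylates IP3 (219.8 and 432.6), and Slc24a2, a potassium-dependent sodium-calcium exchanger (145.0 and 233.3). Nfatc2, a calcineurin-regulated transcription factor (69.9 and 112.4), was also past 1.5-fold and higher. It was under the limit on the control siRNA array, so its direction was fixed by the limit. With no signal limit the ratio of Nfatc2 was -0.05. Homer3, a scaffold of glutamate and IP3 receptors (593.0 and 330.0), Jph4, a junctophilin that ties the ER to the plasma membrane (717.9 and 422.2), and Pkd1, the polycystin partner of a calcium-permeable channel (241.4 and 158.9), were lower. Saraf, which encodes an inhibitor of store-operated entry, had 9485.9 and 12207.6 (0.36), and calreticulin (Calr), the main calcium-binding protein of the ER, 15206.1 and 16232.6 by its brightest probe set (gene ratio 0.06).

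The ratios of the 10 calcium genes past 1.5-fold were recomputed under other settings. Stim1 kept a ratio between 0.74 and 1.18 and Orai2 one between 0.68 and 1.69, so that both stayed above 0 while neither stayed past 2-fold throughout. Trpc2 lay between -0.84 and -0.58, Camk1d between 0.51 and 0.83 and Cacna1g between -0.81 and -0.56. Cacna2d4 was the only one of the 10 to change sign.

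**Figure D4:**
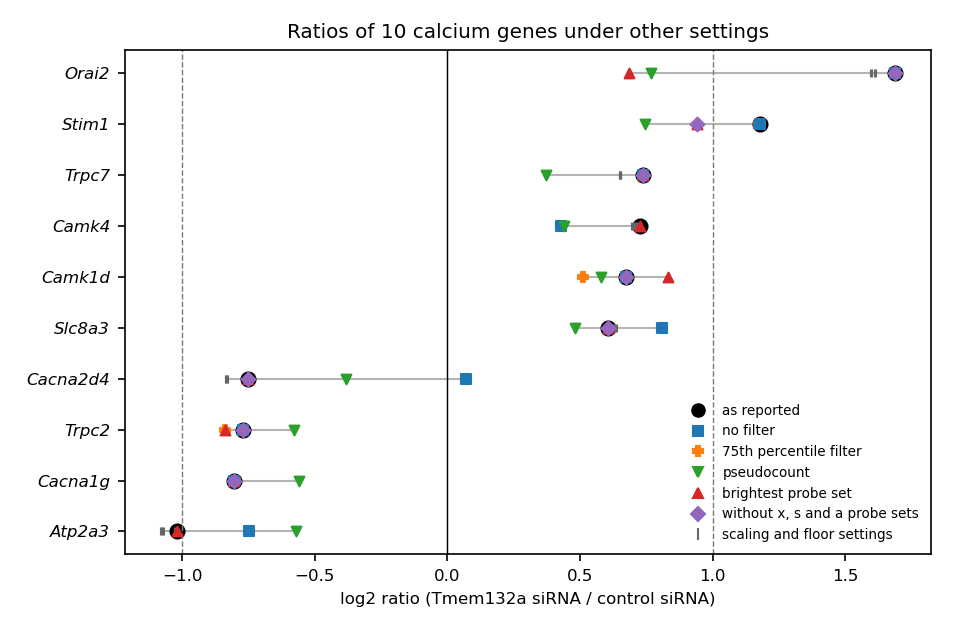
The log2 ratios of the 10 calcium genes at least 1.5-fold higher or lower are plotted as reported (black) and under each alternative that gave a value (coloured symbols and ticks), with dashed lines at 2-fold. The pseudocount draws every ratio toward 0, and Cacna2d4 crosses 0 with no filter (0.07).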

How the data were processed

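The authors deposited linear MAS5 signal intensity for each probe set, as the series text says. No MAS5 version or scaling is stated in these sources. Both arrays had a 2% trimmed mean of 500.003 and were set to the same trimmed mean. The 64 Affymetrix control probe sets among 45101 were dropped. Of the rest, 34945 had 1 gene symbol in the platform annotation, 932 had several and 9160 were not listed. All 77 calcium genes matched an Entrez identifier of the RefSeq gene table (GRCm38.p6), and 0 symbols changed. A probe set was measured when its mean signal reached the median of all (77.25). Signals under the 20th percentile (14.5) were set to that floor. A gene value is the mean log2 ratio over its measured probe sets. No test was possible with single arrays, and genes are described by 2-fold and 1.5-fold size.

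Named were the store-operated, IP3 receptor and uniporter genes, every member at least 1.5-fold, the brightest of each role and members with probe sets of opposite direction. Members, lists and rules were chosen with earlier results of these data known. Some genes under the same rule are not reported here. Motifs were searched on both strands of the RefSeq stretches, with a chromosome left out. The procedure was tested on simulated data. Python 3.11.15, numpy 2.4.6, pandas 2.3.3, scipy 1.17.1, statsmodels 0.14.6 and matplotlib 3.10.9 were used. Alternatives for scaling were none, quantile normalization, loess (span 0.3) and ratios centred on their median. Those for dim signals were a pseudocount of 79.2 or nothing in place of the floor, and a limit at the 75th percentile (462.8) or none. Those for genes were the brightest probe set alone, and leaving out suffixes x, s and a.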

Additional observations from a re-analysis of the deposited data

How the results depend on the processing

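Rescaling, centring, loess and the floor left all counts of calcium genes as reported, and the median stayed between -0.01 and 0.08 in the 10 settings. The 2 genes at least 2-fold higher became 5 of 77 with no filter, 1 without x, s and a probe sets, and 0 with the 75th percentile filter (16 genes measured), with the pseudocount and by the brightest probe set. The 1 gene at least 2-fold lower became 4 with no filter, 2 by the brightest probe set (Cacnb1 at -1.06 joined), and 0 with the 75th percentile filter, with the pseudocount and when x, s and a suffixes were left out. At 1.5-fold, the 6 higher genes became 16 with no filter, 0 with the 75th percentile filter and 2 with the pseudocount, and the 4 lower genes became 11, 1 and 0. Of the wider list, the 2 genes past 2-fold became 4 with quantile normalization, 10 with no filter, 0 with the 75th percentile filter and 1 with the pseudocount. With no filter 7.21% of all genes were 2-fold higher and 4.84% 2-fold lower, and at 1.5-fold 16.0% and 12.1%. With the 75th percentile filter these shares were 0.642%, 1.31%, 5.71% and 6.74%, and with the pseudocount 0.459%, 0.740%, 4.35% and 5.15%. At 2-fold, quantile normalization gave shares of 1.99% higher and 2.40% lower, and the brightest probe set alone 2.14% and 2.98%. Dropping suffixes x, s and a gave 2.17% and 2.71%. The filters change which genes are counted, and the pseudocount draws ratios of dim genes toward 0 by its construction. Of the 42 calcium genes, 35 kept the sign of their ratio in all settings that gave a value; Atp2c1, Cacna1a, Cacna1b, Cacna2d4, Camk2d, Itpr2 and Trpm6 did not. No paired analysis was possible because each group has 1 array.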

Other observations

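Of the 77 calcium genes 35 had no measured probe set, among them Cacna1d, Cacna1e, Cacna1h, Cacna2d1, Cacnb2, Cacnb4, Cacng2, Ryr1, Ryr3, Trpc1, Trpc5, Trpv1 and Slc8a2. The 109 calcium probe sets under the limit reached at most 104.5 with control siRNA and 86.7 with Tmem132a siRNA, and 29 were under the floor on both. With signals set to the floor, 22 (20.2%) were higher by 2-fold or more and 15 (13.8%) lower by as much. Among all 15629 named probe sets under the limit these shares were 17.1% and 11.8%, so ratios of this size were common at such signals.

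Some dim probe sets differed widely. For Cacng8, a gamma subunit associated with AMPA receptors, 1459579_at had 104.5 on the control array and 21.6 on the other, and 1451864_at had 38.8 and 10.9. The opposite direction was seen for Plcg2, a phospholipase C of the wider list, whose 1426926_at had 6.8 and 147.5, just under the limit by its mean. Cacna1e had 33.4 and 10.1 by one probe set and 9.8 and 63.8 by the other.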
